A study of Mus musculus with 8 samples.

Results

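The genes that encode voltage-gated sodium and calcium channels were compared between hippocampi of BTBR and B6 mice. They were taken by their names on the array, as every probe named for a sodium channel pore or beta subunit (Scn), a calcium channel pore or alpha2delta subunit (Cacna), a calcium channel beta subunit (Cacnb) or a gamma subunit (Cacng). The names gave 76 probes for 39 genes, of 41174 probes and 27373 gene names on the array. No probe carried the name Scn4b. Whole hippocampi of untreated male mice, 5 months old, were compared on 8 single-color Agilent arrays, 4 for each strain. The B6 group was wild type C57BL/6J. The BTBR group was the inbred strain BTBR T+ Itpr3tf/J, used as a model of autism spectrum disorders, although the strain background in its labels reads C57BL/6J. The strains differ across the whole genome, so no difference below can be assigned to a single allele. The arrays came on a pair of slides, with replicates 1 and 2 of each strain on slide 1 and replicates 3 and 4 on slide 2.

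A voltage-gated sodium channel is a single large alpha protein that forms the pore and opens on depolarization to start the action potential, joined by beta subunits that set its gating and its place in the membrane. A voltage-gated calcium channel has a pore-forming alpha1 protein, an intracellular beta subunit and an extracellular alpha2delta subunit, and it turns the action potential into calcium entry for transmitter release, gene regulation and burst firing. The gamma subunits were named for a member found with the calcium channel of muscle. Most of those made in the brain are better known as transmembrane AMPA receptor regulatory proteins (TARPs), which carry AMPA-type glutamate receptors to the synapse and slow their closing. In the hippocampus these channels set how pyramidal and granule cells fire and how strongly their synapses respond.

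The 60-base probes that carry the main results are shown here as they read in the array files, 5′ to 3′, so that the stretch of transcript behind each value can be seen. Coordinates are those of mm9 in the files. Whether each stretch is coding or untranslated was not annotated here. The Cacng7 probe lies on the plus strand at chr7:3338624-3339037 and the Cacna2d2 probe on the plus strand at chr9:107429535-107429678, and both spans are longer than the probe. The Cacna2d4 probe lies on the plus strand at chr6:119251360-119251419 and was designed on the clone AK030723, and its first 30 bases are given. The Cacna1a probe lies on the plus strand at chr8:87141701-87141760. The first 3 are the probes called higher in BTBR by limma or by the rank product, and the last is a probe whose arrays were all lower in BTBR.
Cacng7: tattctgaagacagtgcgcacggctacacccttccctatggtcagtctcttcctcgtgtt
Cacna2d2: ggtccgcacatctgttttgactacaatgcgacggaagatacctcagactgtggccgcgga
Cacna2d4: catgtagcaattgagttgaatactgtaagt
Cacna1a: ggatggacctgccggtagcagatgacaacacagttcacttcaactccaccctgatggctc

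A probe was tested when it stood well above background, by the scanner software's call, on at least 75% of the arrays of either strain. Of the 76 channel probes 63 were tested, for 34 genes, and 51 of them stood well above background on all 8 arrays. The other 13 probes were too dim, and none of the 76 was saturated or left out for an outlier flag. Cacna1f, Cacng1, Scn7a, Scn9a and Scn11a had no tested probe. These encode the retinal L-type pore, the muscle gamma subunit, a sodium channel that senses salt and pores of peripheral pain neurons, and the probe of Cacng1 was well above background on 1 BTBR array and the others on 0 of 8 arrays. Levels below are quantile normalized log2 intensities, and differences are BTBR minus B6 on the log2 scale. Levels of different probes are not set against each other, since probes differ in brightness.

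The arrays were not alike in marker genes of brain regions. Between 56.8 and 71.9% of spots on each array stood well above background. All listed markers of thalamus, striatum and dentate gyrus were tested, and none was called. The mean level of 8 thalamic marker genes was 13.59 on BTBR replicate 1 and from 10.80 to 11.41 on the other 7 arrays. For 6 striatal marker genes it was 13.47 on BTBR replicate 2, 11.95 on B6 replicate 2 and 11.43 on BTBR replicate 1, against 9.75 to 10.12 on the other 5. For 4 dentate gyrus marker genes it was lowest on BTBR replicates 2 and 1, at 10.85 and 11.64, against 12.03 to 13.08 elsewhere. By the strain means 8 of 8 thalamic, 5 of 6 striatal and 0 of 4 dentate genes were higher in BTBR. The mean of 6 neuronal markers spanned 15.33 to 15.45 over all arrays, and 1 of them was called lower in BTBR. The mean of 6 astrocyte markers was 13.36 to 13.47 on the BTBR arrays and 13.67 to 13.78 on the B6 arrays, with 5 of 6 lower by the strain means and 1 called. Oligodendrocyte markers averaged 15.30 and 15.56 on BTBR replicates 1 and 2 against 14.55 to 14.99 elsewhere, and choroid plexus markers 13.82 and 13.76 against 11.56 to 13.06. The part of any of these markers in the channel values was not tested. Several channel values are given beside these markers, and values without BTBR replicates 1 and 2 and B6 replicate 2 are given where they change a call.

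Few channel genes differed between the strains. By limma with Benjamini-Hochberg adjustment over all 27982 tested probes, 2 of the 63 channel probes (3.17%) passed an adjusted p of 0.05, both higher in BTBR, where 7.61% of all probes passed, 3.31% as higher and 4.3% as lower. The called probes were those of Cacng7, a TARP, and Cacna2d4, an alpha2delta subunit. At an unadjusted p under 0.05 there were 14 channel probes (22.2%, against 18.5% of all probes), of which 11 were higher in BTBR (17.5%, against 9.1%) and 3 were lower (4.76%, against 9.42%). All 4 BTBR arrays lay beyond all 4 B6 arrays for 8 channel probes (12.7%, against 14.2%), with 6 above (9.52%, against 6.91%) and 2 below (3.17%, against 7.27%). A difference of 0.5 or more in either direction was seen for 5 channel probes (7.94%, against 6.65%). The rank product, the test of the study's methods, called 2 channel probes (3.17%, against 3.95%, with 1.64% of all probes called as higher and 2.31% as lower), those of Cacng7 and of Cacna2d2, both higher in BTBR. With slide as a block limma again called 2 (3.17%, against 8.33%). With the scanner software's processed signal it called 5 (7.94%, against 7.29%), so the lower channel share was not seen with that signal.

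Most channel probes showed small differences. The median difference over the 63 was 0.03, with quartiles of -0.07 and 0.15, beside 0.01 over all tested probes, and 49 of the 63 (77.8%) lay within 0.25 of zero, beside 80.3% of all probes. Medians lay within 0.10 of zero for sodium pores (0.02), sodium beta subunits (0.00), P/Q-, N- or R-type pores (-0.05), T-type pores (0.04) and calcium beta subunits (0.095). The 6 L-type probes had a median of -0.10 and the 9 gamma probes a median of 0.097. The 7 alpha2delta probes had the highest median, 0.30, and 5 of the 7 were above 0. A single gene, Cacna2d2, gave 3 of these 7 probes. In whole tissue, fewer cells of a type and less RNA per cell cannot be told apart, and this holds for each difference below.

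**Figure D1:**
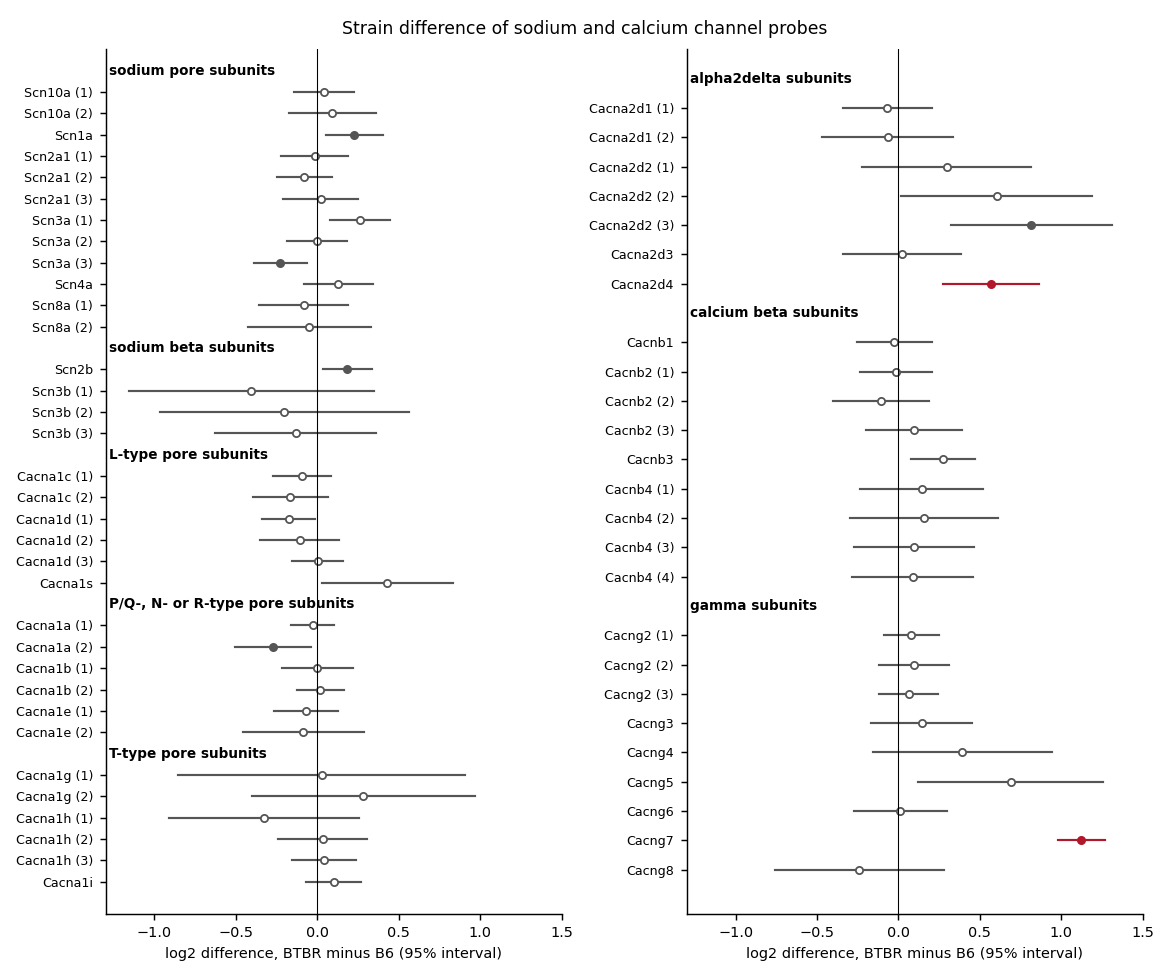
Log2 difference BTBR minus B6 with its 95% interval for 59 of the 63 tested probes, grouped by role, with 4 arrays a strain. Numbers in brackets tell apart probes of the same gene, red marks the 2 probes called by limma, and filled points mark probes whose arrays did not overlap between strains.

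Cacng7 encodes gamma-7, a TARP of the group that modulates AMPA receptors with calcium-permeable subunits, and it is carried on the array by 1 probe (A_51_P327675, NM_133189). Its B6 arrays read 10.31, 10.22, 10.36 and 10.31, a mean of 10.30 ± 0.06 (SD, n = 4). Its BTBR arrays read 11.47, 11.42, 11.48 and 11.32, a mean of 11.42 ± 0.07. The lowest BTBR array stood almost a whole log2 unit above the highest B6 array, and the spread within each strain was small. The difference was 1.12 (95% interval 0.98 to 1.27), a 2.18-fold higher level, with a standard error of 0.06 and an adjusted p of 6.9e-06 by limma. By slide it was 1.18 (slide 1) and 1.06 (slide 2). It was called in each of the 21 alternative settings, leaving out each array included, with values from 1.05 to 1.26.

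Cacng7 sits beside Cacng8 and Cacng6 on chromosome 7. Cacng8 encodes gamma-8, the main TARP of hippocampal pyramidal cells. Its probe read 8.99, 8.64, 9.13 and 9.00 in B6 and 8.25, 8.34, 9.32 and 8.90 in BTBR. The 3 lowest arrays were BTBR replicates 1 and 2 and B6 replicate 2, which also had the lowest dentate gyrus and CA1 markers, and the groups overlapped. The part of those markers in Cacng8 was not tested. The difference was -0.24 (95% interval -0.76 to 0.28, adjusted p = 0.66 by limma), with -0.52 on slide 1 and 0.04 on slide 2. Cacng6, a relative of the muscle gamma subunit, differed by 0.01 (95% interval -0.27 to 0.30). Of the 11 other tested probes within 250 kb of the Cacng7 probe 1 was called (9.09%, beside 7.61% of all probes), that of Oscar, lower in BTBR by a difference of -0.44. No other tested probe in that window was called higher in BTBR.

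The remaining gamma subunits did not pass the test. Cacng5, the closest relative of Cacng7 among the TARPs, read 10.90, 10.51, 10.37 and 10.61 in B6 and 11.91, 10.90, 11.58 and 10.75 in BTBR. Its highest B6 array and its lower BTBR arrays overlapped. The difference was 0.69 (95% interval 0.12 to 1.26, adjusted p = 0.17 by limma), and it was alike on slide 1 (0.70) and slide 2 (0.68). Cacng2, which encodes stargazin, the prototype TARP, had 3 tested probes with differences from 0.06 to 0.10. Cacng3, a TARP of cortex and hippocampus, differed by 0.14 with an interval of -0.17 to 0.45. Cacng4, a TARP of striatum and glial precursors, differed by 0.39 with an interval of -0.16 to 0.94, and its arrays are described with the striatal markers below.

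Cacna2d4 encodes alpha2delta-4, best known from photoreceptors, and its probe was dim. The B6 arrays read 8.01, 7.91, 7.89 and 7.84 for it (7.91 ± 0.07, SD, n = 4) and the BTBR arrays 8.82, 8.56, 8.40 and 8.15 (8.48 ± 0.28). The groups did not overlap, and the BTBR arrays spread more widely than the B6 arrays. It was well above background for 1 B6 array and 4 BTBR arrays, so it entered the test through its BTBR level. The difference was 0.57 (95% interval 0.28 to 0.86, adjusted p = 0.029 by limma), with 0.72 on slide 1 and 0.41 on slide 2. The call was lost without B6 replicate 1, 2, 3 or 4 or BTBR replicate 2, with adjusted p from 0.057 to 0.089 and differences from 0.54 to 0.60. Without the 3 arrays high in thalamic or striatal markers the difference was 0.36 and the adjusted p 0.16 by limma. The scanner software's processed signal, which subtracts background without the offset, gave a difference of 2.15 for the same probe, and the deposited table gave 0.35 with an adjusted p of 0.052 by limma, at which it was not called.

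Cacna2d2 encodes alpha2delta-2, the subunit lost in the ducky mouse and a target of gabapentin, and its 3 tested probes were all higher in BTBR by their means. Probe A_51_P171711 (NM_020263) read 7.60, 7.93, 7.98 and 8.04 in B6 and 9.03, 9.16, 8.13 and 8.50 in BTBR. All BTBR arrays lay above all B6 arrays, and the BTBR arrays of slide 1 were the highest. Its difference was 0.82 (95% interval 0.32 to 1.31, adjusted p = 0.059 by limma, rank product pfp = 0.018), and it was well above background for 2 B6 arrays and 4 BTBR arrays, so it entered the test through its BTBR level. With the processed signal the same probe differed by 2.38 and limma called it (adjusted p = 0.024), as it did with median centring (0.84, adjusted p = 0.042) and without BTBR replicate 3 (1.01, adjusted p = 0.0092). By slide it was 1.33 (slide 1, adjusted p = 0.0036 by limma) and 0.30 (slide 2), and the gap between them had an unadjusted p of 0.0021 and an adjusted p of 0.40 by limma. The rank product no longer called it without BTBR replicate 1, 2 or 4. Without the 3 arrays high in thalamic or striatal markers it was 0.44, and what part those markers had in it was not tested.

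The other Cacna2d2 probes overlapped between strains. A_52_P457888 read 9.19, 9.81, 9.47 and 9.26 in B6 and 10.34, 10.62, 9.77 and 9.41 in BTBR, a difference of 0.60 (adjusted p = 0.25 by limma). A_52_P457895 read 10.24, 10.59, 10.30 and 10.07 in B6 and 10.89, 11.12, 10.05 and 10.32 in BTBR, a difference of 0.30 (adjusted p = 0.57 by limma). Their 3 highest arrays were BTBR replicates 2 and 1 and B6 replicate 2, the arrays high in striatal markers. The mean of 6 interneuron markers was also highest on these arrays, at 14.50, 13.98 and 14.06, against 13.57 to 13.92 elsewhere. The part of either set of markers in Cacna2d2 was not tested. The high BTBR values of these Cacna2d2 probes were again those of slide 1, where the differences were 0.98 and 0.59, against 0.23 and 0.00 on slide 2. Of the 34 other tested probes within 250 kb of A_51_P171711, the 2 further Cacna2d2 probes among them, 7 were called (20.6%, beside 7.61% of all probes), and 6 of those 7 were higher in BTBR.

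The alpha2delta genes best known from forebrain did not differ by the test. Cacna2d1, the main target of gabapentin and pregabalin, gave -0.07 for both of its tested probes, with intervals of -0.34 to 0.20 and -0.47 to 0.33. Cacna2d3, a subunit tied to pain and synapse formation, gave 0.02 (95% interval -0.34 to 0.38).

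**Figure D2:**
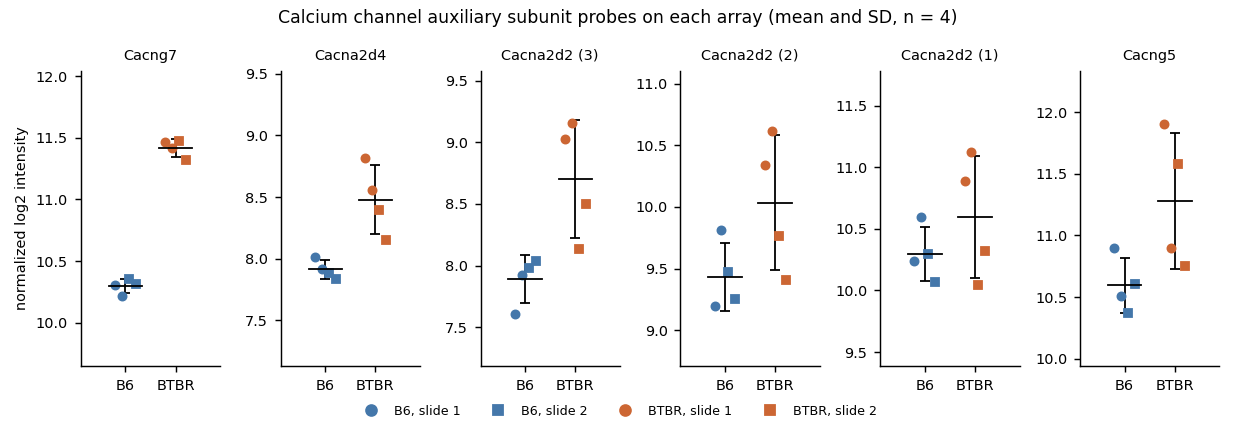
Normalized log2 intensity of 6 calcium channel auxiliary subunit probes on each array, with the mean and SD of 4 arrays a strain and panels that span equal ranges. The Cacng7 arrays of the strains stand apart on both slides, while the 3 Cacna2d2 probes are highest on the BTBR arrays of slide 1.

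Calcium channel pore genes had no call. Cacna1a, the P/Q-type pore of presynaptic terminals, had a probe (A_52_P210424, NM_007578) that read 8.86, 9.23, 8.81 and 8.81 in B6 and 8.59, 8.60, 8.68 and 8.75 in BTBR. All BTBR arrays lay below all B6 arrays, and B6 replicate 2 stood highest. The difference was -0.27 (95% interval -0.51 to -0.04, adjusted p = 0.18 by limma; two-sided exact permutation p = 0.0286, the smallest that 4 against 4 arrays allow). By slide it was -0.45 (slide 1) and -0.10 (slide 2), without B6 replicate 2 it was -0.17, and without the 3 arrays high in thalamic or striatal markers it was -0.11. The other Cacna1a probe differed by -0.03 with an interval of -0.16 to 0.10. Cacna1b, the N-type pore, gave -0.00 and 0.02, and Cacna1e, the R-type pore, gave -0.07 and -0.09.

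Of the L-type pores, Cacna1c, the main brain form, gave -0.09 and -0.17, and Cacna1d, which opens at lower voltages, gave -0.18, -0.11 and 0.00. The Cacna1d value of -0.18 (probe A_51_P251213) had an unadjusted p under 0.05 and an adjusted p of 0.23 by limma. Cacna1s, the pore of skeletal muscle, read 9.35, 9.65, 9.41 and 9.88 in B6 and 10.35, 9.90, 10.17 and 9.59 in BTBR. BTBR replicate 4 lay within the B6 range and the other BTBR arrays above it. The difference was 0.43 (95% interval 0.03 to 0.83, adjusted p = 0.24 by limma).

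Intracellular beta subunits, which bring the pores to the membrane, had no call either. Cacnb3, abundant in hippocampus, read 14.28, 14.33, 14.39 and 14.38 in B6 and 14.67, 14.39, 14.75 and 14.67 in BTBR. BTBR replicate 2 touched the top of the B6 range and the other 3 BTBR arrays lay above it. The difference was 0.27 (95% interval 0.08 to 0.47, adjusted p = 0.11 by limma), with 0.22 on slide 1 and 0.32 on slide 2. Without BTBR replicate 2 it was 0.35 with an adjusted p of 0.015 by limma. Cacnb4, the subunit lost in the lethargic mouse, gave 0.09 to 0.16 over 4 probes. Cacnb1 gave -0.02, and Cacnb2, the main cardiac form, gave -0.11 to 0.10 over 3 probes.

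Sodium channel pore genes of the brain differed little. Scn1a, the pore of fast-spiking interneurons that is mutated in Dravet syndrome, had 1 tested probe (A_51_P509551, NM_018733), which read 12.05, 12.03, 12.10 and 12.17 in B6 and 12.47, 12.18, 12.25 and 12.36 in BTBR. The BTBR arrays lay just above the B6 arrays. The difference was 0.23 (95% interval 0.05 to 0.40, adjusted p = 0.14 by limma). Scn2a1, the pore of pyramidal axons (now Scn2a), gave -0.08 to 0.02 over 3 probes with all intervals between -0.25 and 0.25. Scn8a, the pore of the axon initial segment in mature neurons, gave -0.08 and -0.05, and both of its probes were lower on the BTBR arrays of slide 1 than of slide 2.

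Scn3a, a pore most abundant before birth, gave unlike values by probe. A_52_P210781 read 9.06, 9.10, 9.05 and 9.24 in B6 and 9.39, 9.47, 9.19 and 9.44 in BTBR, a difference of 0.26 (adjusted p = 0.10 by limma) with BTBR replicate 3 inside the B6 range. Without that array limma called it (difference 0.32, adjusted p = 0.032), as it did with the processed signal (0.42, adjusted p = 0.030). A_51_P398037 read 8.08, 8.01, 7.91 and 7.90 in B6 and 7.71, 7.73, 7.88 and 7.69 in BTBR, a difference of -0.23 (adjusted p = 0.11 by limma) with no overlap. With the processed signal it differed by -1.84 and was called (adjusted p = 0.0074 by limma). This dim probe was well above background for 3 B6 arrays and 0 BTBR arrays, so it entered the test through its B6 level. Against a bound for BTBR the B6 mean was 1.13-fold higher, without a measure of sampling error. The bound takes on each BTBR array the higher of the probe's own value and the lowest signal well above background. On BTBR replicates 1 and 3 that was the probe's own undetected reading. A_51_P148176 differed by -0.00 with an interval of -0.19 to 0.18. The gene thus had no common direction over its probes. The same held for 6 of the 19 genes with several tested probes, and the other 13 had all their probes on the same side of 0.

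Of the pore genes known mainly from other tissues, Scn10a, a pore of pain neurons, gave 0.04 and 0.09, and Scn4a, the pore of skeletal muscle, gave 0.13, and neither was called.

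Among the sodium beta subunits, Scn2b stood slightly higher in BTBR by its mean, without passing the test. For Scn2b, a subunit linked to the pore by a disulfide bond, the arrays read 15.77, 15.83, 15.77 and 15.61 in B6 and 15.90, 15.98, 15.94 and 15.90 in BTBR. These arrays did not overlap, and the difference was 0.18 (95% interval 0.04 to 0.33, adjusted p = 0.16 by limma).

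Scn3b, a subunit abundant in hippocampal pyramidal cells, had the lowest values on BTBR replicates 1 and 2. Its brightest probe (A_51_P184331) read 15.999, 15.37, 15.73 and 16.03 in B6 and 14.83, 14.68, 16.15 and 15.84 in BTBR. The BTBR arrays of slide 1 were far below every other array, and those of slide 2 lay within or above the B6 range. The difference was -0.40 (95% interval -1.15 to 0.34, adjusted p = 0.60 by limma), made up of -0.93 on slide 1 and 0.12 on slide 2. The other Scn3b probes gave -0.62 and -0.42 on slide 1 and 0.22 and 0.15 on slide 2.

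**Figure D3:**
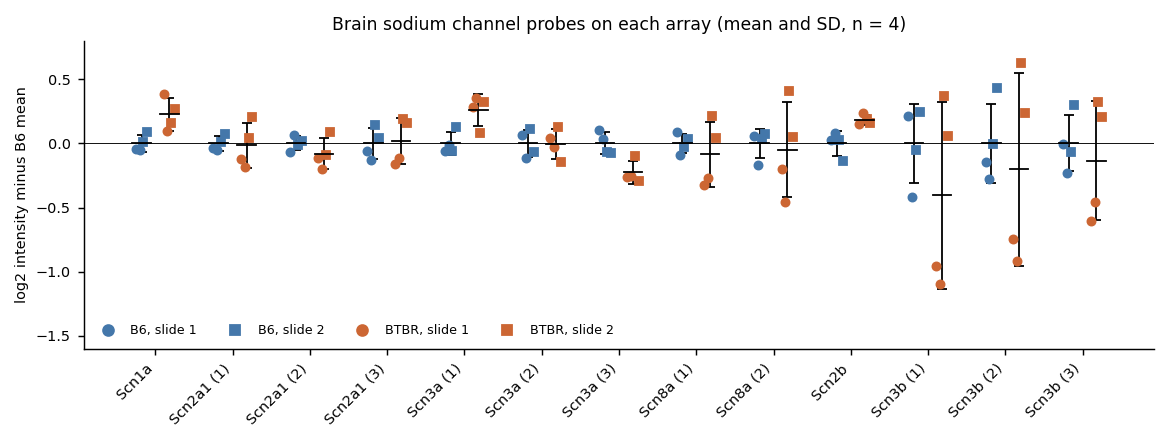
Log2 intensity of 13 probes of 6 brain sodium channel genes on each array, less the mean of the 4 B6 arrays, with the mean and SD of each strain. The Scn1a and Scn2b probes lie above zero on all BTBR arrays, and the 3 Scn3b probes are lowest on the BTBR arrays of slide 1.

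The strain difference was also taken on each slide, with the spread between arrays pooled over both slides. The difference between slides had an unadjusted p under 0.05 for 12 of the 63 probes (19%, beside 9.93% of all probes), and limma called none after adjustment, neither among the channel probes nor among all 27982. Within slide 1, 6 channel probes passed an adjusted p of 0.05 (9.52%, beside 8.66% of all probes), which were Cacng7, Cacna2d4, Cacng4 and both A_51_P171711 and A_52_P457888 of Cacna2d2 as higher and A_51_P184331 of Scn3b as lower. Within slide 2, Cacng7 alone passed (1.59%, beside 3.7%).

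**Figure D4:**
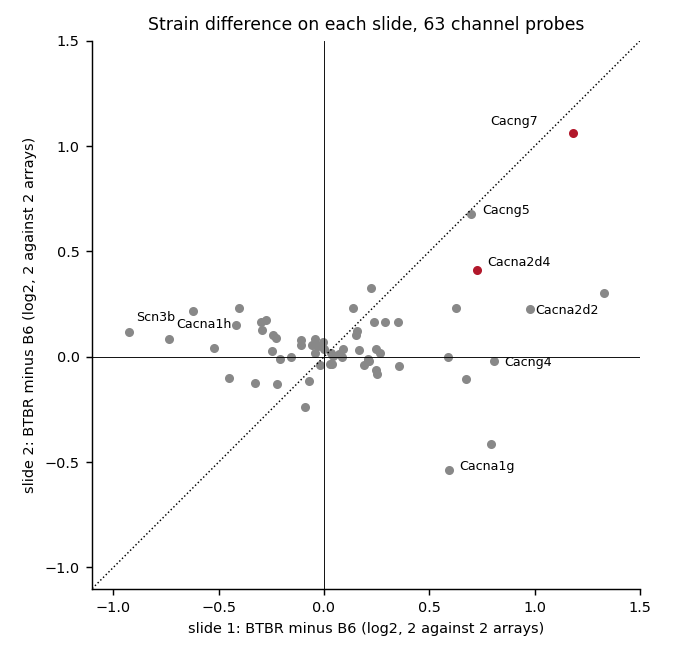
Difference BTBR minus B6 on slide 1 against that on slide 2 for the 63 tested probes, with 2 arrays a strain on each slide, red for the 2 probes called by limma and a dotted line where both slides give the same value. Cacng7 and Cacng5 lie close to the line, Cacna2d2 and Cacng4 lie far to the right of it, and Scn3b and Cacna1h far to the left.

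Arrays that stood apart in regional markers also stood apart for several channel genes. Cacna1g, the T-type pore behind burst firing of thalamic relay cells, read 11.56, 11.69, 11.79 and 11.64 in B6 and 12.88, 11.55, 10.62 and 11.74 in BTBR with its brightest probe (A_51_P466910). BTBR replicate 1, with the highest thalamic markers (13.59), was the highest array for it. The same array was the highest for the second Cacna1g probe, at 11.01 against 9.47 to 9.89 on the other arrays. The strain differences of 0.03 and 0.28 had intervals of -0.85 to 0.91 and -0.40 to 0.97, and without BTBR replicate 1 they were -0.37 and -0.06.

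Cacng4 read 8.82, 9.07, 8.81 and 8.85 in B6 and 9.60, 9.90, 8.85 and 8.76 in BTBR. Its 3 highest arrays were BTBR replicates 2 and 1 and B6 replicate 2, those with the highest striatal markers (13.47, 11.43 and 11.95). Interneuron markers were highest on the same arrays (14.50, 13.98 and 14.06). By slide Cacng4 differed by 0.81 (slide 1) and -0.02 (slide 2), and what part striatal tissue or interneurons had in it was not tested.

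Cacna1h, a T-type pore of hippocampal neurons, was low on the arrays with the lowest dentate gyrus and CA1 markers, as Scn3b was. Its brightest probe (A_51_P280384) read 12.16, 11.56, 11.89 and 12.03 in B6 and 10.93, 11.32, 12.08 and 12.01 in BTBR. The 3 lowest arrays were BTBR replicates 1 and 2 and B6 replicate 2, which also held the lowest dentate markers (11.64, 10.85 and 12.03) and the lowest means of 3 CA1 markers (12.42, 12.76 and 13.28, against 13.58 to 14.31 elsewhere). The mean of 3 tested CA3 markers was lowest on BTBR replicates 2 and 1 (14.19 and 14.44, against 14.78 to 15.34 elsewhere). By slide it differed by -0.74 (slide 1) and 0.08 (slide 2), and the part of these markers in it was not tested. The other Cacna1h probes gave 0.03 and 0.04, and Cacna1i, the third T-type pore, gave 0.10 (95% interval -0.07 to 0.27). Cacng7 had BTBR values of 11.47 and 11.42 on slide 1 and 11.48 and 11.32 on slide 2, above all its B6 arrays. The mean of 6 astrocyte markers also set the strains apart on every array, at 13.67 to 13.78 in B6 and 13.36 to 13.47 in BTBR. The part of any markers in Cacng7 was not tested.

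**Figure D5:**
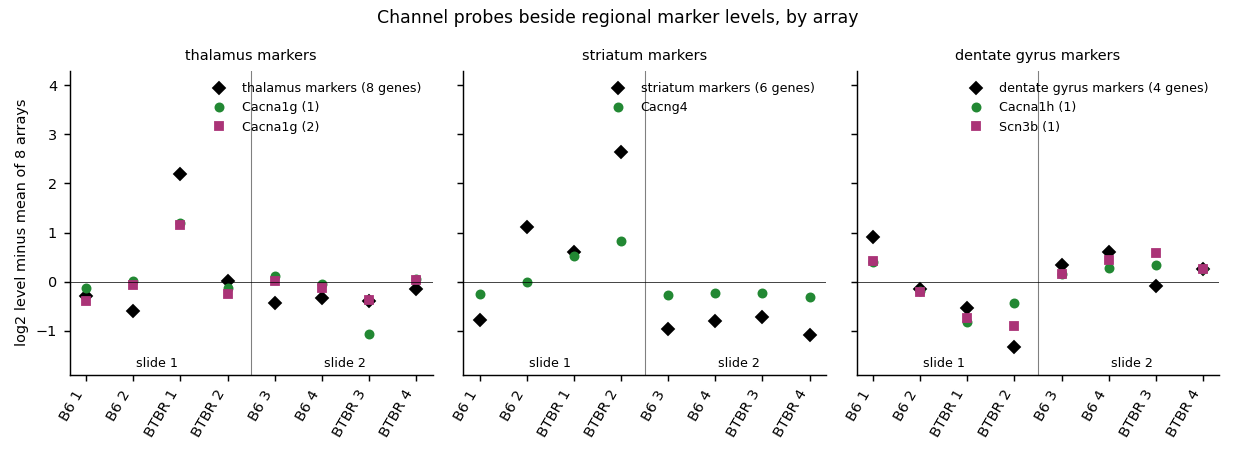
Level of 5 channel probes on each array and mean level of thalamic (8 genes), striatal (6 genes) and dentate gyrus (4 genes) markers, each less its own mean over the 8 arrays, on the log2 scale. Cacna1g is highest on BTBR replicate 1 with the thalamic markers, Cacng4 is highest on BTBR replicate 2 with the striatal markers, and Cacna1h and Scn3b are low on BTBR replicates 1 and 2 with the dentate markers.

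Proteins that anchor, gate or modify these channels were read from a list of 43 genes written from general knowledge, of which 36 had a tested probe. Of their 67 tested probes limma called 6 (8.96%, beside 7.61% of all probes), 5 higher and 1 lower in BTBR, and the median difference was 0.04. Calm3 encodes calmodulin, which binds both channel families, and 1 of its 3 probes was called. The called Calm3 probe gave 15.05 ± 0.15 in B6 and 15.56 ± 0.23 in BTBR (difference 0.51, adjusted p = 0.038 by limma), and its others differed by -0.16 and 0.44. Its call was lost without B6 replicate 1, 2 or 3 or BTBR replicate 1, 3 or 4, with the processed signal, with median centring and within either slide. Unc80, a subunit of the sodium leak channel complex, gave with 1 of 3 probes 8.71 ± 0.10 and 9.19 ± 0.17 (difference 0.48, adjusted p = 0.015 by limma). Both called probes had 4 arrays a strain and no overlap between strains.

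Tmem37, a gamma-like membrane protein, gave with 1 of 2 probes 11.12 ± 0.29 in B6 and 12.03 ± 0.44 in BTBR (difference 0.91, adjusted p = 0.040 by limma), with 1.23 on slide 1 and 0.59 on slide 2. Its highest arrays, BTBR replicates 1 and 2 (12.29 and 12.50), were also the highest in choroid plexus markers (13.82 and 13.76), and the part of those markers in it was not tested. Its call was lost without B6 replicate 1, 2, 3 or 4 or BTBR replicate 1 or 2, with the processed signal, with median centring and with no filter on dim probes. Catsper2, a pore of the sperm calcium channel, gave 9.98 ± 0.11 and 10.72 ± 0.16 (difference 0.74, adjusted p = 0.0010 by limma). Catsper3, another pore of that channel, was the gene called lower, with 8.32 ± 0.01 and 7.99 ± 0.06 (difference -0.33, adjusted p = 0.0062 by limma). Without the 3 arrays high in thalamic or striatal markers Tmem37, Unc80 and Catsper3 were not called, in a smaller fit that called 1206 of all probes in place of 2129. With strain alone and all 8 arrays, no probe of the ankyrin and spectrin anchors or the fibroblast growth factor homologous factors was called. Nor was any of the RGK small GTPases, the STAC adaptors, the presynaptic tethers or the ubiquitin ligases. In other settings, Fgf11 was called with the replicate number as a block and without BTBR replicate 1, and Ank2 with that block. Nfasc was called without BTBR replicate 4 and within slide 1, and Rims2 within slide 1.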

How the data were processed

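Hippocampal RNA of 4 BTBR and 4 B6 mice was measured on single-color Agilent arrays of 45018 spots, with groups taken from the strain in the labels. The authors deposited each spot's intensity from the scanner's Feature Extraction software (10.7.3.1 in the file headers), while the submitters' processing notes name version 9.1. The deposited log2 table was made by the authors by background subtraction and quantile normalization, and served as an alternative. From mean intensity the median local background was taken off, with a minimum of 0.5 and an offset of 50, before log2 and quantile normalization, and repeated spots were given by their median. Control probes, 154 probes with outlier flags and probes not well above background on 75% of the arrays of a strain were left out.

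Strains were compared in limma 3.58.1 (R 4.3.3) with strain alone, Benjamini-Hochberg adjustment over 27982 probes and a threshold of 0.05. Rank products over 16 pairs of arrays used 100 permutations and a predicted false positive share (pfp) of 0.05. A fit with strain, slide and their interaction gave the values by slide. Genes were named by the array files, whose coordinates are on mm9. The comparison was tested on simulated data. Alternatives were other signals, background corrections, scalings, filters and blocks, and leaving out each array. Figures were drawn with matplotlib 3.10.9.

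The channel genes, the lists of markers and partners and the tests were chosen with earlier results of these data known. Named were all called probes, the probes without overlap, those at an unadjusted p under 0.05, and ranges for the rest. Probes whose values moved with regional markers were chosen after their values were seen. Values of some channel and partner genes are not reported here, and counts include them. The number of arrays limits the precision.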

Additional observations from a re-analysis of the deposited data

Results flagged for a closer look

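In each of the 126 sets of 4 arrays (63 probes in 2 strains) the highest and the lowest array were compared with the nearest of the others by Dixon's ratio. An array stood apart in 7 sets, where chance alone gives about 1 in 20. The Cacna1a probe A_52_P210424 read 9.23 on B6 replicate 2 against 8.81 to 8.86 on the other B6 arrays, and it is the Cacna1a probe with the lower BTBR values. The Cacna1e probe A_52_P1180358 read 8.58 on B6 replicate 1 against 7.82 to 7.94. Cacna2d3 read 14.29 on B6 replicate 3 against 14.47 to 14.51. The Cacnb2 probe A_51_P283300 read 11.02 on B6 replicate 4 against 10.71 to 10.74. The Cacng2 probe A_51_P226645 read 11.34 on BTBR replicate 1 against 11.08 to 11.12. Cacng4 read 9.07 on B6 replicate 2, the B6 array high in striatal markers, against 8.81 to 8.85. Cacng6 read 8.46 on B6 replicate 4 against at most 8.05 on the other B6 arrays. None of the 7 probes was called by limma.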

How the results depend on the processing

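Of the 63 channel probes, 2 were called as reported (3.17%, beside 7.61% of all probes). The count was 5 with the processed signal (7.94%, beside 7.29%) and 6 within slide 1 (9.52%, beside 8.66%). It was 1 with the values the authors deposited (1.59%, beside 7.68%) and 1 within slide 2 (1.59%, beside 3.7%). Among probes well above background on all arrays it was 1 (1.96%, beside 7.35%). With an array left out it was 1 to 4, each time a lower share than among all probes. Without BTBR replicates 1 and 2 and B6 replicate 2, a setting chosen after seeing the data, it was 1 (1.69%, beside 4.77%). The median channel difference of 0.03 became 0.073 with the processed signal and 0.071 without those 3 arrays, and was 0.01 to 0.05 with an array left out. The 6 partner calls became 1 within slide 2, 3 without those 3 arrays and 4 to 6 with an array left out. Rank product calls were 4 with the processed signal and 1 to 3 with an array left out. Over all probes limma called 2129, against 1036 within slide 2 and 1206 without those 3 arrays. Tests of 1 value per gene, the median of its probes, gave 2 calls among 34 channel genes. None of the 14 probes at an unadjusted p under 0.05 changed direction in the settings run. Leaving out an array moved Cacna1g between -0.37 and 0.39 (A_51_P466910) and between -0.06 and 0.45 (A_52_P611610), and other probes near 0 changed sign as well. Same-numbered arrays of the strains deviated with correlations of -0.14, 0.51, -0.10 and 0.39. Correlations of differently numbered arrays ran from -0.50 to 0.37, and whether the numbers pair the mice cannot be told from these values. With the replicate number as a block, 2 channel probes and 6 partner probes (Ank2 and Fgf11 among them, Calm3 and Unc80 not) were called and the median difference was 0.03, and 1650 of all probes were called. The causes of these changes were not tested. Dim probes limit the comparison, since 12 of the 63 tested probes were not well above background on every array.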
